A study of Mus musculus with 16 samples.

Results

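Adgrg5, Adgrg1, Adgrg3, Adgre4 and Adgre5 are 5 adhesion G protein-coupled receptor (GPCR) genes with reported expression in leukocytes, and they were read by gene symbol from the 24421 symbols counted in every library. The set was chosen by the CPM of Adgrg5 in earlier results on these data, where it was higher in Nlrp3-/- than in WT monocytic myeloid-derived suppressor cells (M-MDSCs) and hardly differed in granulocytic ones (G-MDSCs). The genotype difference of Adgrg5, its difference between the subsets in Nlrp3-/- mice and the difference between its genotype effects are therefore given as values without a test, while the other genes and the remaining comparison of Adgrg5 were tested. Splenic cells came from 4 WT and 4 Nlrp3-/- mice, all on a C57BL/6 background. All bore a B16.F10 melanoma, a mouse tumor line implanted under the skin of the back. The authors bought C57BL/6J mice from the Jackson Laboratory, while the Nlrp3-/- line was given by another laboratory. Littermates were not mentioned, so genotype and colony of origin cannot be told apart. M-MDSCs were sorted as CD11b-high Ly6C+ Ly6G- cells and G-MDSCs as CD11b-high Ly6C- Ly6G+ cells, both subsets coming from every mouse, so that each of the 4 groups held 4 libraries and each library 1 mouse. The Nlrp3-/- allele is a germline disruption in every cell of the animal by an EGFP cassette with an SV40 poly(A) signal, so that the MDSCs, the other cells of the spleen and the remaining host tissues all lacked the gene. Mice were matched for sex and age, and the day of the sort was not given for the sequenced samples. Every library is a bulk sample, in which fewer cells of a type and less RNA per cell cannot be told apart.

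Adhesion GPCRs carry a long extracellular region joined to a membrane-spanning part, and most are cut between these parts at a proteolysis site while the protein is made. Removal or pulling of the extracellular part exposes a tethered peptide that activates the receptor. In myeloid cells members of the family take part in adhesion, migration and the sensing of mechanical force. ADGRG1 (GPR56) binds collagen III and transglutaminase 2 and signals through G12 and G13 proteins. ADGRG3 (GPR97) is known as a receptor of neutrophils. ADGRE4 (FIRE) and ADGRE5 (CD97) belong to the EGF-like branch of the family that includes F4/80, and CD97 binds the complement regulator CD55, integrins and Thy-1.

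On mm10, Adgrg5 (chr8:94923694-94943280), Adgrg1 (chr8:94974751-95014217) and Adgrg3 (chr8:95017692-95045250) lie next to each other on the plus strand, with gaps of 31470 and 3474 bases between them. Adgre5 lies elsewhere on the same chromosome (chr8:83723251-83741326, minus strand) and Adgre4 on another (chr17:55749984-55853662, plus strand). Promoter sequences of 4 of the 5 genes were taken from RefSeq on GRCm38.p6, from 250 bases before to 50 bases after the start of the gene, and none was matched for Adgre5. Those of Adgrg5, Adgrg3 and Adgre4 are shown because the first 2 belong to neighbouring genes with opposite subset patterns. The third belongs to a gene with an M-MDSC pattern whose genotype difference there did not pass the test. Capitals mark the matches found in a search of both strands for GAGGAA, the core bound by the myeloid factor PU.1, and for the C/EBP motif TTNNGNAA. The windows are chr8:94923444-94923743, chr8:95017442-95017741 and chr17:55749734-55750033, each written along the plus strand.
Adgrg5: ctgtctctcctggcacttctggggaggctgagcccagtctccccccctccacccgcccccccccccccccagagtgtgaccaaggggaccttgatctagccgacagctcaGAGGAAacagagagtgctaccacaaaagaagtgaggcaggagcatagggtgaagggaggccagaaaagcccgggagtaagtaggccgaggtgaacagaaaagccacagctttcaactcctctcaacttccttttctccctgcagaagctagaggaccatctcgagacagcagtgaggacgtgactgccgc
Adgrg3: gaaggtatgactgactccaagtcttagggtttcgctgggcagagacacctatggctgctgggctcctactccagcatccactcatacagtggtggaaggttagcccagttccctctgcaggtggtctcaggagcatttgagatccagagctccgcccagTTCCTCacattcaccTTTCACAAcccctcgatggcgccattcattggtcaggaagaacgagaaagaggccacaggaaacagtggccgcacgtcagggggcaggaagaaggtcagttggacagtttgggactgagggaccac
Adgre4: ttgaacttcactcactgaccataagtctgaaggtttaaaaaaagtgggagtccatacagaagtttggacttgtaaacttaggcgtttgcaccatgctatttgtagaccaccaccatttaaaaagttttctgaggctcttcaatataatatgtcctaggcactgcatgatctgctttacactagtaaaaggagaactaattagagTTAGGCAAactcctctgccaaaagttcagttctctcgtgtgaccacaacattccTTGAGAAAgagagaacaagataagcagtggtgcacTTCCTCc
The Adgrg5 window held 1 PU.1 core, beginning at position −140 counted from the start of the gene, and no C/EBP motif. A PU.1 core at −91 and a C/EBP motif at −76 were found for Adgrg3, and a PU.1 core at 43 with C/EBP motifs at −46 and 8 for Adgre4. Among 32851 promoters of the same length, 28.3% held the PU.1 core and 40.7% the C/EBP motif, so either match is common. The motifs of IRF factors (in 3.44% of promoters), AP-1 (TGANTCA, 7.81%), STAT factors (TTCNNNGAA, 8.3%) and the TATA box (TATAAA, 13.6%) were in none of the 3 windows, which says only that these letters are not there. Of the Adgrg1 windows, not shown, that beginning at chr8:94984149 held AP-1 motifs at −141 and −59 and a C/EBP motif at −206. That beginning at chr8:94976859 held none of the motifs searched. GC content was 59% in the Adgrg5 window, 55.7% in that of Adgrg3 and 40.3% in that of Adgre4, against a median of 52.7% over all promoters.

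Total counts ran from 2295967 to 6079866 per library (median 4839510). Levels are given as CPM, the counts divided by library size and scaled by TMM over the 16 libraries, and are compared within a gene. Nlrp3 itself was at 40.7 to 88.9 CPM in WT and 0.514 to 1.88 CPM in Nlrp3-/- M-MDSCs, and at 252 to 331 CPM in WT and 5.51 to 13.6 CPM in Nlrp3-/- G-MDSCs, so the genotype labels held in every library. The summed level of 10 neutrophil markers was 1456 to 8758 CPM in WT M-MDSCs, 2207 to 2554 CPM in Nlrp3-/- M-MDSCs, 115343 to 151443 CPM in WT G-MDSCs and 141169 to 175732 CPM in Nlrp3-/- G-MDSCs. Ly6g itself is not analysed here. Of 9 classical monocyte markers, 7 were lower in G-MDSCs in both genotypes, where 27.1% of genes tested in WT and 27.4% in Nlrp3-/- mice were lower. Their sums were 6011 to 9304 CPM in M-MDSC and 1966 to 2717 CPM in G-MDSC libraries. Markers of the melanoma summed to at most 1.45 CPM. WT M-MDSC replicate 2 stood apart from the rest of its group, with 8758 CPM of neutrophil markers against 1881 CPM or less in the other 3 libraries. It was also highest in progenitor markers, at 292 CPM against 75.3 to 115 CPM. Its erythroid markers were at 72.1 CPM against 8.38 to 28.8 CPM, and its dendritic cell markers at 110 CPM against 28.1 to 68.0 CPM.

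Adgrg5 was the member with the largest genotype difference, and it lay in M-MDSCs. In WT M-MDSCs it measured 3.53, 5.91, 5.35 and 4.45 CPM in replicates 1 to 4, from 13 to 42 counts. Nlrp3-/- M-MDSCs measured 88.2, 90.9, 63.1 and 80.5 CPM, from 302 to 758 counts. The lowest Nlrp3-/- library lay above the highest WT library by more than the whole range of either group. In this contrast 19.3% of the 9986 genes tested had groups that did not overlap and 3.51% were called higher in Nlrp3-/- cells. Means were 80.7 ± 12.5 CPM (SD, n = 4) in Nlrp3-/- and 4.81 ± 1.04 CPM in WT M-MDSCs, a ratio of 16.8. The fitted log2 difference was 4.07 (SE 0.23), the fifth largest in size among those genes. It was 3.96 to 4.21 when each library was left out in turn and 3.87 to 4.18 over 8 other settings of the fit.

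In G-MDSCs Adgrg5 stayed near the lowest amounts that can be read. WT G-MDSCs held 2.67, 1.02, 3.63 and 1.95 CPM, from 3 to 15 counts. Nlrp3-/- G-MDSCs held 4.85, 2.22, 0.829 and 4.46 CPM, from 4 to 21 counts. The groups overlapped, with the lowest of the 8 libraries in the Nlrp3-/- group. The fitted log2 difference was 0.29 (SE 0.63), and it ranged from −0.01 to 0.64 when each library was left out. The genotype effect in G-MDSCs minus that in M-MDSCs was −3.71 (SE 0.57) on the log2 scale.

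By subset, Adgrg5 in WT mice was 1.02 lower on the log2 scale in G-MDSCs (difference −1.02, SE 0.41, 95% interval −1.91 to −0.12), with an adjusted p of 0.0512 by edgeR's quasi-likelihood test, which misses the threshold. The WT values of both subsets also entered the choice of the gene, so this p is not independent of that choice. The highest G-MDSC library, at 3.63 CPM, lay above the lowest M-MDSC library, at 3.53 CPM. The call of this comparison depended on the setting, with an adjusted p of 0.0471 in a fit of all 16 libraries and 0.00266 with library sizes alone, where the difference was −1.75. In Nlrp3-/- mice the difference was −4.84 (SE 0.37), a 26.1-fold ratio of the mean CPM. In order of the mean, Adgrg5 was highest in Nlrp3-/- M-MDSCs, then in WT M-MDSCs (4.81 CPM), Nlrp3-/- G-MDSCs (3.09 ± 1.90 CPM) and WT G-MDSCs (2.32 ± 1.11 CPM). Each of the last 3 groups overlapped the next.

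**Figure D1:**
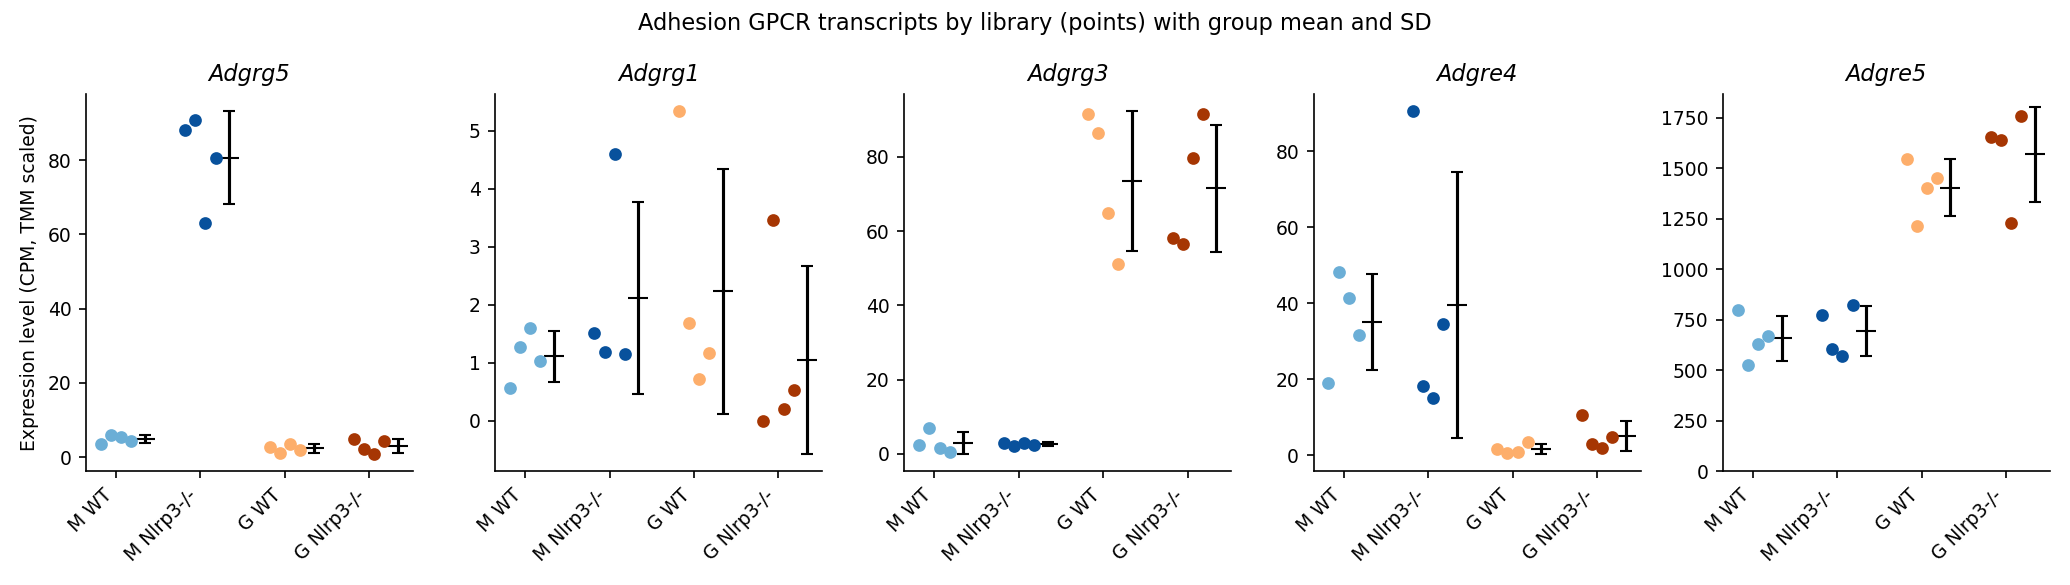
Level in CPM (TMM-scaled, linear axes that include 0) of Adgrg5, Adgrg1, Adgrg3, Adgre4 and Adgre5 in each library of the 4 groups; each point is 1 mouse, and the bar and whiskers are the mean and SD of 4 mice. Adgrg5 is at 63.1 to 90.9 CPM in the Nlrp3-/- M-MDSC libraries and at 5.91 CPM or less in the other 12.

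Adgrg3, the neutrophil receptor whose gene lies beyond Adgrg1 from Adgrg5, had the opposite subset pattern. WT M-MDSCs held 2.42, 7.03, 1.61 and 0.343 CPM and WT G-MDSCs 91.5, 86.3, 64.9 and 51.0 CPM. In Nlrp3-/- mice the M-MDSC libraries held 3.02, 2.22, 2.92 and 2.31 CPM and the G-MDSC libraries 58.2, 56.5, 79.6 and 91.5 CPM. The subsets did not overlap in either genotype, as was so for 51.9% of genes tested in WT and 50.2% in Nlrp3-/- mice. The log2 difference, G-MDSCs minus M-MDSCs, was 4.52 (SE 0.49, adjusted p = 1.01e-05) in WT and 4.64 (SE 0.26, adjusted p = 4.78e-09) in Nlrp3-/- mice by edgeR. In WT it was 5.42 without M-MDSC replicate 2. In these contrasts 53.3% of 9739 genes were called in WT (26.3% higher and 27.1% lower in G-MDSCs) and 51% of 10071 genes in Nlrp3-/- mice (23.7% higher and 27.4% lower), a call being an adjusted p under 0.05 with a fold above 1.5, so a call between the subsets was common. Of the 3 members other than Adgrg5 that passed the filter on low counts, 3 were called in each genotype, by edgeR and by DESeq2.

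Between genotypes the Adgrg3 groups overlapped in both subsets. The log2 difference, Nlrp3-/- minus WT, was −0.13 (SE 0.22, 95% interval −0.60 to 0.35, adjusted p = 0.730) in G-MDSCs. In M-MDSCs it was −0.18 (SE 0.60, adjusted p = 0.876), and it became 0.78 without WT M-MDSC replicate 2. That library, with 50 counts of Adgrg3 against 1 to 13 in the other 3, was also the one with the high neutrophil markers. Its S100a8, a calcium-binding protein abundant in neutrophils, was at 3723 CPM against 566 to 752 CPM in the other 3. The part of other cells in its Adgrg3 value was not tested.

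Adgre4, a receptor of myeloid cells, was higher in M-MDSCs. WT M-MDSCs held 19.0, 48.2, 41.4 and 31.5 CPM and WT G-MDSCs 1.67, 0.677, 0.727 and 3.50 CPM. Nlrp3-/- M-MDSCs held 90.5, 18.3, 15.0 and 34.6 CPM and Nlrp3-/- G-MDSCs 10.6, 2.96, 1.86 and 4.72 CPM. The subsets did not overlap in either genotype, as was so for 51.9% of genes tested in WT and 50.2% in Nlrp3-/- mice. The log2 difference was −4.48 in WT (SE 0.47, adjusted p = 7.41e-06) and −3.11 in Nlrp3-/- mice (SE 0.62, adjusted p = 0.000737) by edgeR. That of WT was −5.08 without G-MDSC replicate 4, and that of Nlrp3-/- mice −2.28 without M-MDSC replicate 1 and −3.78 without G-MDSC replicate 1, and the calls held. The Nlrp3-/- M-MDSC libraries were widely spread, replicate 1 lying at 90.5 CPM and the next at 34.6 CPM. The genotype difference in M-MDSCs was 0.24 (SE 0.51, 95% interval −0.86 to 1.35, adjusted p = 0.792), and it became −0.64 without Nlrp3-/- M-MDSC replicate 1.

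In G-MDSCs the WT and Nlrp3-/- levels of Adgre4 overlapped, replicate 4 of WT lying above replicates 2 and 3 of Nlrp3-/-. The log2 difference was 1.56 (SE 0.69, 95% interval 0.08 to 3.05), and it did not pass the adjustment (edgeR, unadjusted p = 0.0401, adjusted p = 0.134). It was 0.90 without Nlrp3-/- replicate 1 and 2.20 without WT replicate 4, the ends of the range when each library was left out. The highest value, 10.6 CPM, was that of Nlrp3-/- replicate 1, the mouse that also had the highest Adgre4 among M-MDSCs. Adgre4 has a low GC content for a transcript, 39.2%, which places it at percentile 3.91. A trend on GC content and length would move its log2 level in the 8 G-MDSC libraries by −0.27 to 0.27 from its mean, while the libraries deviated by −1.39 to 1.95.

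Adgre5 (CD97) rested on the most counts of the 5 and had the smallest fitted genotype differences of the 4 members tested. WT M-MDSCs held 799, 528, 630 and 669 CPM and Nlrp3-/- M-MDSCs 775, 606, 571 and 820 CPM. WT G-MDSCs held 1546, 1213, 1401 and 1452 CPM and Nlrp3-/- G-MDSCs 1655, 1637, 1226 and 1756 CPM. Within each subset the genotypes overlapped widely, and every G-MDSC library lay above every M-MDSC library on this scale. Subsets that did not overlap were seen for 51.9% of genes tested in WT and 50.2% in Nlrp3-/- mice. The genotype difference was 0.11 (SE 0.19, 95% interval −0.30 to 0.52, adjusted p = 0.736) in M-MDSCs and 0.08 (SE 0.16, 95% interval −0.27 to 0.42, adjusted p = 0.781) in G-MDSCs, both on the log2 scale by edgeR.

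G-MDSCs exceeded M-MDSCs in Adgre5 by 1.10 in WT (SE 0.18, adjusted p = 0.000231) and by 1.06 in Nlrp3-/- mice (SE 0.18, adjusted p = 0.000222) on the log2 scale by edgeR. With library sizes in place of TMM these became 0.35 (adjusted p = 0.109) and 0.33 (adjusted p = 0.105), and the calls were lost. The subsets then overlapped in both genotypes. WT G-MDSC replicate 2 was at 875 CPM and WT M-MDSC replicate 1 at 981 CPM. Nlrp3-/- G-MDSC replicate 3 was at 973 CPM and Nlrp3-/- M-MDSC replicate 4 at 1134 CPM. That scaling moved the median gene from −0.05 to −0.79 in WT and from −0.12 to −0.83 in Nlrp3-/- mice, and relative to the median gene Adgre5 was higher in G-MDSCs by 1.15 against 1.14 in WT and by 1.18 against 1.17 in Nlrp3-/- mice. It also moved the share of calls that were higher in G-MDSCs from 49.2% to 18.7% in WT and from 46.4% to 18.5% in Nlrp3-/- mice. Adgre5 overlaps Ddx39 on the opposite strand over 3642 bases, and the authors counted reads by strand.

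Adgrg1, which lies between Adgrg5 and Adgrg3, was near the limit of the depth in every group. Its values were 0.557, 1.27, 1.61 and 1.03 CPM in WT M-MDSCs and 1.51, 1.19, 4.59 and 1.16 CPM in Nlrp3-/- M-MDSCs. WT G-MDSCs held 5.34, 1.69, 0.727 and 1.17 CPM and Nlrp3-/- G-MDSCs 0, 3.46, 0.207 and 0.525 CPM. The largest of these, 5.34 CPM, rests on 16 counts, and no library held more than 22. A count of 0 in Nlrp3-/- G-MDSC replicate 1 allows up to 0.693 CPM. All 4 groups overlapped, and Adgrg1 did not pass the filter on low counts in any of the 4 contrasts, so no difference was detectable at this depth.

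Between genotypes, then, the 3 members other than Adgrg5 that were tested gave 0 calls in M-MDSCs, where 10.6% of 9986 genes were called, and 0 in G-MDSCs, where 16.4% of 9273 genes were called (4.7% higher and 11.7% lower in Nlrp3-/- cells). At an unadjusted p under 0.05, edgeR gave 0 of them in M-MDSCs and 1, Adgre4, in G-MDSCs, and DESeq2 called 0 in either. Among the genes called, 33.1% were higher in Nlrp3-/- M-MDSCs, a share that became 54.6% with library sizes alone and 43.9% with offsets for the GC content and length of transcripts (the GC correction). In G-MDSCs the share was 28.6%, and 48.1% and 42.5% under the same settings. The difference between the genotype effects passed the test in 3 of 10696 genes, 0.028%. Adgrg5 is among these 3, but it was chosen for this difference, so its place there is not a test of it. Of the 4 members other than Adgrg5, 0 passed. Their values, G-MDSCs minus M-MDSCs on the log2 scale, were −1.95 (SE 1.24) for Adgrg1, 0.23 (SE 0.56) for Adgrg3, 1.51 (SE 0.90) for Adgre4 and 0.08 (SE 0.25) for Adgre5, each with an adjusted p of 0.992. DESeq2 also called 0 of the 4, and 0 of them had an unadjusted edgeR p under 0.05.

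**Figure D2:**
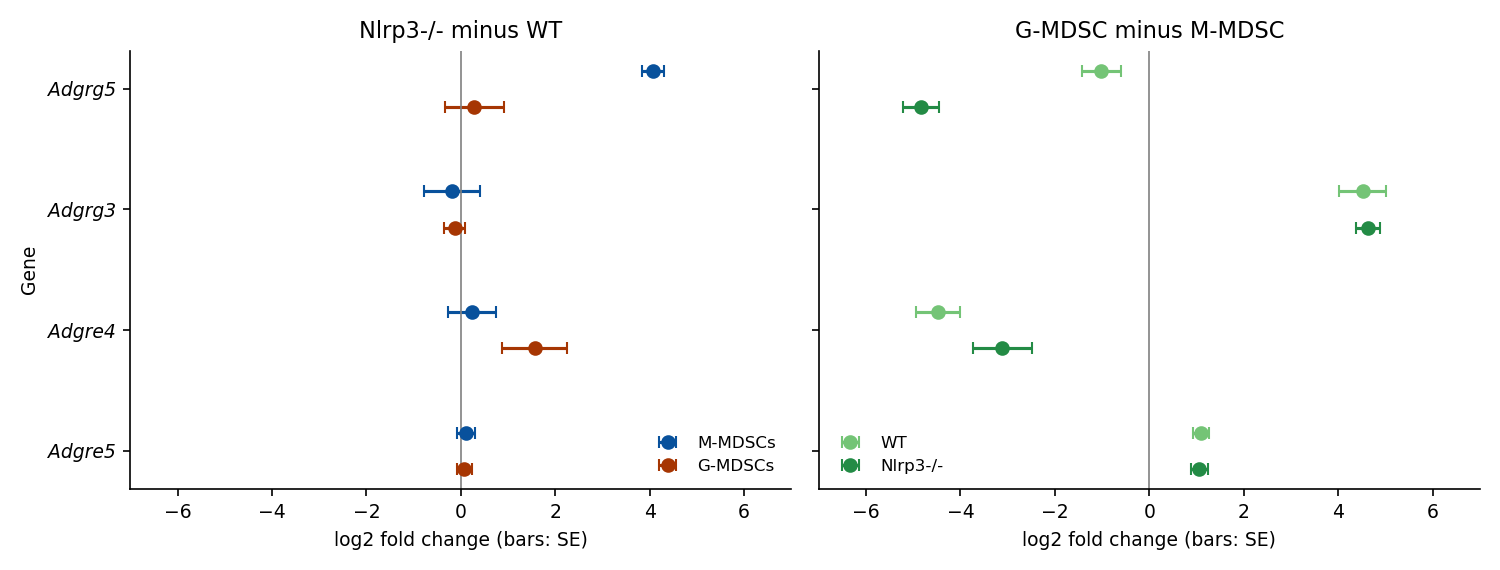
Log2 differences with their standard errors for Adgrg5, Adgrg3, Adgre4 and Adgre5, from edgeR fits of 8 libraries; the left panel gives Nlrp3-/- minus WT within each subset and the right panel G-MDSCs minus M-MDSCs within each genotype. In the left panel Adgrg5 in M-MDSCs stands at 4.07 and the other 3 receptors lie between −0.18 and 0.24 there.

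Of 25 further adhesion GPCR genes, 24 were among the counted symbols, and 5 passed the filter on low counts in M-MDSCs and 3 in G-MDSCs. Between genotypes edgeR called 0 of these in either subset, as did DESeq2, while 2 in M-MDSCs (Adgre1 and Celsr3) and 1 in G-MDSCs (Adgre1) had an unadjusted edgeR p under 0.05. The list had medians of 0.45 and 0.44 on the log2 scale against 0.07 and 0.03 over all genes tested. Adgre1, which encodes the macrophage antigen F4/80, was at 76.2, 68.5, 76.9 and 80.9 CPM in WT and 107, 98.4, 97.5 and 101 CPM in Nlrp3-/- M-MDSCs. The M-MDSC groups did not overlap, as was so for 19.3% of genes, and the difference of 0.45 (SE 0.14, edgeR adjusted p = 0.0562) missed the threshold. In G-MDSCs Adgre1 was at 37.4, 43.0, 69.3 and 51.0 CPM in WT and 77.6, 69.6, 62.8 and 87.3 CPM in Nlrp3-/- cells, overlapping groups with a difference of 0.47 (SE 0.21, adjusted p = 0.133). That of G-MDSCs became 0.70 (adjusted p = 0.033) without WT replicate 3. Celsr3, a cadherin-type adhesion GPCR, differed by 0.81 in M-MDSCs (SE 0.28, edgeR adjusted p = 0.0787), and by 0.94 (adjusted p = 0.033) without Nlrp3-/- replicate 1.

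Between the subsets Celsr3 was higher in G-MDSCs by 1.29 in WT (SE 0.28, adjusted p = 0.0019) and by 0.91 in Nlrp3-/- mice (SE 0.24, adjusted p = 0.00513), and with library sizes alone both calls were lost (0.53 and 0.19). Adgre1 was lower in WT G-MDSCs by a log2 difference of −0.59 (SE 0.19, edgeR adjusted p = 0.022), just past the fold threshold, and it lost the call with DESeq2's size factors (−0.58). Adgrl4, a receptor known from endothelium, was lower in Nlrp3-/- G-MDSCs (−4.14, SE 0.89, adjusted p = 0.00136), and by −5.36 without Nlrp3-/- G-MDSC replicate 3.

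The ligands of these receptors were tested as 9 of 11 listed genes in each subset. In M-MDSCs 1 was called between genotypes, Cd81, a tetraspanin that associates with GPR56, which rose by 0.95 (SE 0.24, edgeR adjusted p = 0.0282), from a mean of 11.5 to 22.2 CPM. In G-MDSCs 1 was called, Cd55, the complement regulator bound by CD97. It was at 15.7, 21.3, 12.6 and 19.8 CPM in WT and at 7.39, 2.47, 9.53 and 11.0 CPM in Nlrp3-/- G-MDSCs. The groups did not overlap, as was so for 24.4% of genes there, and the log2 difference was −1.28 (SE 0.39, adjusted p = 0.0361). Both calls depended on the setting. Cd55 missed the threshold with library sizes alone (adjusted p = 0.054), with the GC correction (0.115) and without any of 4 of the 8 libraries, and Cd81 without any of 5. The list medians were 0.18 in M-MDSCs and −0.01 in G-MDSCs.

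Among 16 tested genes of G proteins and of the exchange factors and kinases downstream of them, the same 3 fell in Nlrp3-/- cells of both subsets, where 7.1% and 11.7% of all genes tested fell. They were Rock1 and Rock2, kinases that act on the actin cytoskeleton, and Gnas, the stimulatory G protein alpha subunit that carries cAMP signals. In M-MDSCs Rock2 fell by 1.15 (SE 0.15, edgeR adjusted p = 0.00235), Gnas by 1.09 (SE 0.21, adjusted p = 0.00832) and Rock1 by 1.00 (SE 0.16, adjusted p = 0.00451) on the log2 scale. Mean Gnas levels were 343 CPM in WT and 158 CPM in Nlrp3-/- M-MDSCs, and 212 and 117 CPM in G-MDSCs. In G-MDSCs Rock2 fell by 1.56 (adjusted p = 2.25e-05), Rock1 by 1.40 (adjusted p = 5.04e-05) and Gnas by 0.94 (adjusted p = 0.00394). The list medians were −0.02 and −0.03, near those of all genes. These calls held in G-MDSCs under every alternative run, with Rock2 at −0.95 with the GC correction. In M-MDSCs Rock1 fell under the fold threshold with the GC correction (−0.57), and with the replicate block added to it Rock1, Rock2 and Gnas all missed the threshold (edgeR adjusted p = 0.145, 0.0962 and 0.0565).

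Arrestins, GPCR kinases and regulators of G protein signaling (RGS) switch receptors off, and 11 of 11 listed genes were tested. Adrbk1, the kinase GRK2, rose in Nlrp3-/- M-MDSCs by 0.67 (SE 0.17, edgeR adjusted p = 0.0282), a call lost without any of 6 of the 8 libraries. In G-MDSCs Rgs18 fell by 1.41 (SE 0.21, adjusted p = 0.000486), from a mean of 83.0 to 33.1 CPM, while Rgs1 rose by 1.09 (SE 0.28, adjusted p = 0.0174) and Arrb1, beta-arrestin 1, by 0.60 (SE 0.18, adjusted p = 0.0312). The Rgs18 call held in every alternative run, and that of Arrb1 was lost without any of 6 of the 8 libraries. Rgs1 lost its call without Nlrp3-/- replicate 2 or 4 (adjusted p = 0.053 and 0.062), and it was 1.69 with the GC correction.

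Of the genes that make, bind and degrade cAMP, the M-MDSC fit tested 13 and the G-MDSC fit 12. The phosphodiesterase gene Pde4a rose in Nlrp3-/- M-MDSCs by 0.75 (SE 0.20, edgeR adjusted p = 0.0318), and the call was lost without any of 6 of the 8 libraries. Prkacb, a catalytic subunit of protein kinase A, fell in Nlrp3-/- G-MDSCs by 0.98 (SE 0.22, adjusted p = 0.00756), and missed the threshold with the GC correction (adjusted p = 0.069). The difference between the genotype effects was called in 0 genes of the ligand, G protein, arrestin and cAMP lists by edgeR or DESeq2, and 1 gene, Rgs1, had an unadjusted edgeR p under 0.05.

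Between the subsets these lists held more calls, as did the genes at large. Of 9 ligand genes, 5 were higher and 2 lower in WT G-MDSCs, and 4 and 2 in Nlrp3-/- G-MDSCs. Cd9, a tetraspanin, was higher by 4.97 and 4.98 in WT and Nlrp3-/- mice, Tgm2, transglutaminase 2, by 3.24 and 2.25, and Itgb1, the beta 1 integrin, was lower by log2 differences of −1.65 and −1.61. Among 11 arrestin, kinase and RGS genes 7 were higher and 2 lower in WT, and 7 and 1 in Nlrp3-/- mice. Arrb2, beta-arrestin 2, was higher in G-MDSCs by 2.19 and 2.24, Adrbk1 by 1.60 and 1.46 and Rgs18 by 1.72 in WT, while Adrbk2, the kinase GRK3, was lower (−5.43 and −4.69). Of the G protein genes Gnai3, an inhibitory alpha subunit, was higher by 1.69 and 1.61, and the calls of Gnai2, Gnaq and Gng2 in the same direction were lost with library sizes alone. The cAMP genes split, with Pde4a (−1.56 and −1.94) and the adenylate cyclase Adcy7 (−1.11 and −1.57) lower in G-MDSCs and Pde4b higher (1.45 and 1.25).

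Genes around Adgrg5 on chromosome 8 were examined next. The 5 members aside, a list of 7 neighbours gave 6 tested in M-MDSCs. Of these 2 rose in Nlrp3-/- cells, where 3.51% of all genes tested rose. Ccdc102a, a coiled-coil protein gene, lies on the minus strand, with 5595 bases between its start and that of Adgrg5. It was at 18.4, 10.8, 24.1 and 14.0 CPM in WT and 34.3, 45.7, 50.1 and 33.9 CPM in Nlrp3-/- M-MDSCs. Its groups did not overlap, as was so for 19.3% of genes there, with a log2 difference of 1.30 (SE 0.25, edgeR adjusted p = 0.00858). The call of Ccdc102a was lost in a fit of all 16 libraries (adjusted p = 0.051). Kifc3, a minus-end kinesin, was at 28.4, 21.1, 18.9 and 26.7 CPM in WT and 52.5, 59.7, 73.3 and 71.8 CPM in Nlrp3-/- M-MDSCs, again without overlap, with a log2 difference of 1.46 (SE 0.19, adjusted p = 0.00201). Kifc3 kept its call in every alternative run. In G-MDSCs it was at 0.727 to 1.02 CPM in WT and 1.23 to 8.78 CPM in Nlrp3-/- cells, too low to be tested.

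In G-MDSCs 4 neighbours were tested and 1 rose, where 4.7% of all genes tested rose. It was Coq9 of coenzyme Q synthesis, which went from 6.68, 7.11, 4.85 and 6.62 CPM to 15.9, 12.3, 17.0 and 18.4 CPM. The groups did not overlap, as was so for 24.4% of genes there. The log2 difference was 1.25 (SE 0.30, edgeR adjusted p = 0.0106), which missed the threshold with the GC correction (0.91, adjusted p = 0.064). The list medians were 0.47 in M-MDSCs and 0.59 in G-MDSCs, against 0.07 and 0.03 over all genes. Between the subsets Kifc3 was lower in G-MDSCs (−4.72 in WT and −3.86 in Nlrp3-/- mice), as was Ccdc102a (−3.27, or −4.66 without WT G-MDSC replicate 1, and −4.66 in Nlrp3-/- mice).

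Within 1 Mb on either side of Adgrg5, a window chosen after the values were seen, 51 genes were among the counted symbols. Over all genes tested, 3.51% were called higher and 7.1% lower in Nlrp3-/- M-MDSCs, and 4.7% and 11.7% in Nlrp3-/- G-MDSCs. Of 29 window genes tested in M-MDSCs 3 were higher and 1 lower in Nlrp3-/- cells. Of 27 tested in G-MDSCs 2 were higher and 2 lower. The higher ones were Kifc3, Ccdc102a and Ciapin1, of iron-sulfur cluster assembly (0.95), in M-MDSCs, and Coq9 and Ciapin1 (0.94) in G-MDSCs. Csnk2a2, a catalytic subunit of casein kinase 2, was lower in M-MDSCs (−1.21), and Rspry1 (−0.93) and Cnot1, the scaffold of the CCR4-NOT complex (−0.77), were lower in G-MDSCs. With the GC correction Rspry1 and Cnot1 missed the threshold, and Csnk2a2 did without WT M-MDSC replicate 2 (−1.07, edgeR adjusted p = 0.059). Ciapin1 missed it in G-MDSCs without Nlrp3-/- replicate 2 (0.83, adjusted p = 0.0568) and in both subsets with the replicate block and GC correction together (adjusted p = 0.0657 for M-MDSCs, 0.0658 for G-MDSCs). The median log2 difference of the window was 0.13 in both subsets.

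**Figure D3:**
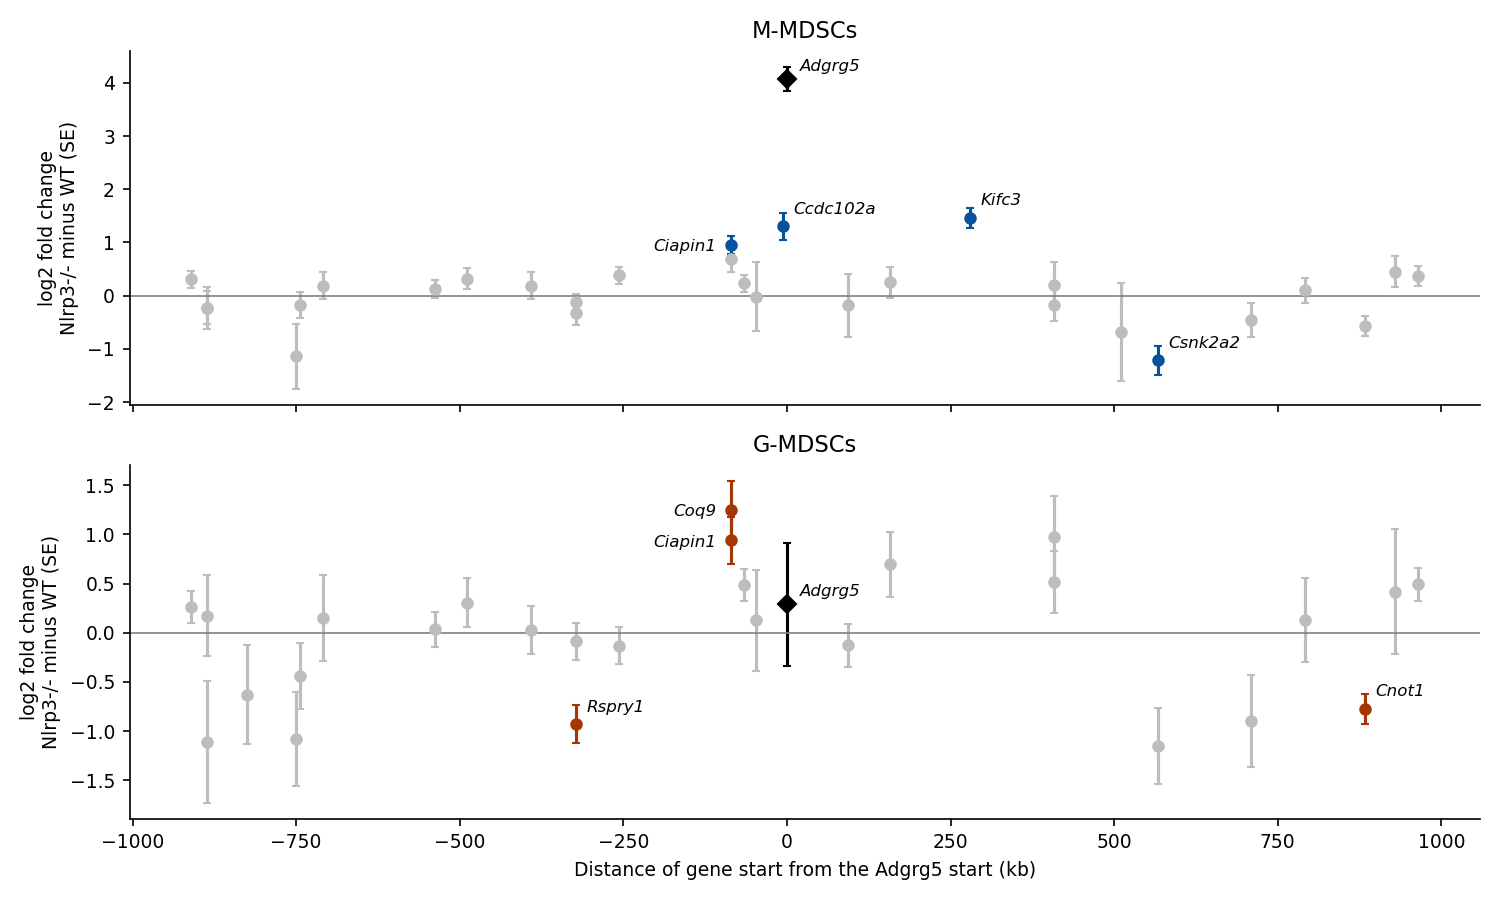
Log2 difference, Nlrp3-/- minus WT, with its standard error, of every tested gene within 1 Mb of Adgrg5 against its distance in kb from the start of Adgrg5, in M-MDSCs (top) and G-MDSCs (bottom); colored points are genes that passed both thresholds, and Adgrg5 is marked without a test. Adgrg5 stands at 4.07 in M-MDSCs, above Kifc3 at 1.46 and Ccdc102a at 1.30, and at 0.29 in G-MDSCs.

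Markers of other cells were set beside Adgrg5. The summed level of 8 macrophage markers was 75.3, 81.1, 83.7 and 76.4 CPM in WT and 213, 288, 159 and 236 CPM in Nlrp3-/- M-MDSCs. In G-MDSCs it was 245, 126, 95.2 and 154 CPM in WT and 487, 517, 398 and 560 CPM in Nlrp3-/- cells. Of 7 markers tested, 5 rose in Nlrp3-/- M-MDSCs and 6 in Nlrp3-/- G-MDSCs, where 3.51% and 4.7% of all genes tested rose. Mertk, a receptor for the uptake of dead cells, was at 0 in WT M-MDSCs and at 0.829 CPM or less elsewhere. The macrophage sum was highest in Nlrp3-/- G-MDSCs.

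Eosinophil markers summed over 8 genes to 22.1, 42.6, 18.2 and 30.2 CPM in WT and 39.6, 81.5, 54.7 and 43.3 CPM in Nlrp3-/- M-MDSCs. In G-MDSCs they summed to 30.7, 31.5, 34.4 and 56.4 CPM in WT and 62.4, 61.7, 64.6 and 66.6 CPM in Nlrp3-/- cells. The sums of the Nlrp3-/- G-MDSC libraries lay within the range of the Nlrp3-/- M-MDSC libraries. Of the eosinophil markers 1 of 3 tested rose in M-MDSCs and 0 of 4 in G-MDSCs by edgeR (2 of the 4 with an unadjusted p under 0.05, and 1 called by DESeq2). Over all genes tested, 3.51% rose in M-MDSCs and 4.7% in G-MDSCs. Epx, eosinophil peroxidase, was at 0.703 CPM or less in every library and at 0 in the 4 Nlrp3-/- G-MDSC libraries. Markers of natural killer (NK) cells summed to 53.0 to 102 CPM in WT and 130 to 199 CPM in Nlrp3-/- M-MDSCs, and to 39.3 to 68.1 CPM and 80.7 to 122 CPM in the G-MDSC groups. Of these, 1 of 6 tested rose in M-MDSCs and 2 of 5 in G-MDSCs, beside the same shares of all genes. Klra8 was at 0 in all 4 groups. The part of any of these cells in the Adgrg5 level was not tested.

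**Figure D4:**
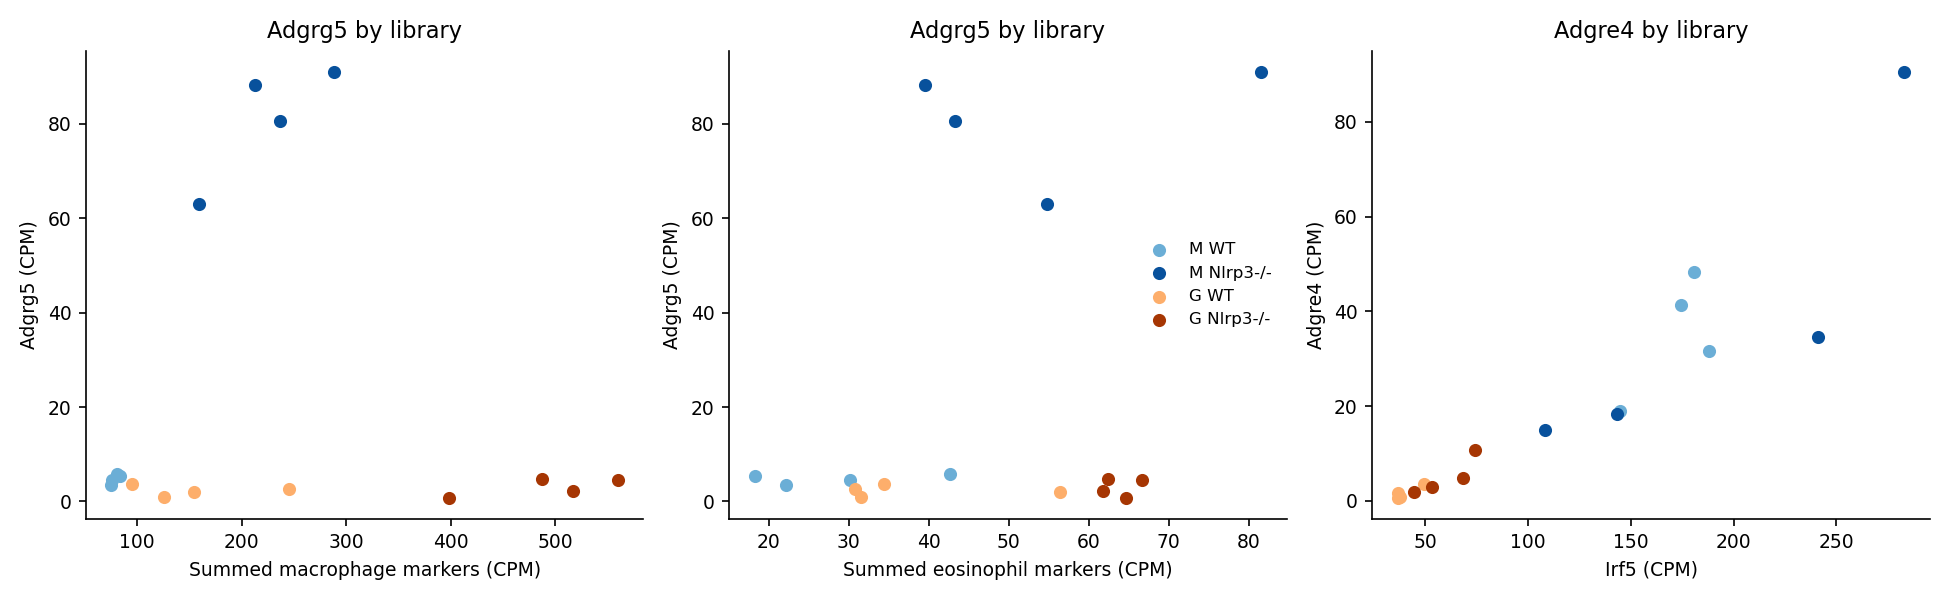
Each point is 1 of the 16 libraries, in CPM; the panels plot Adgrg5 against the summed macrophage markers, Adgrg5 against the summed eosinophil markers, and Adgre4 against Irf5, with the 4 groups in separate colors. The Nlrp3-/- G-MDSC libraries lie farthest right on the macrophage axis, at 398 to 560 CPM. The part of macrophages or eosinophils in the Adgrg5 level was not tested.

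The genes most like each receptor were found by Pearson correlation of log2 CPM over the 16 libraries among 10695 genes. Points of one group share the subset and genotype, all genes share the library scaling, and the values are descriptions. Adgrg5 was closest to Ttc12 (r = 0.907), which serves dynein assembly, Rem1 (0.904), a small GTPase, Cd209d (0.901), a C-type lectin, Pkig (0.872), an inhibitor of protein kinase A, and Ifi47 (0.869), an interferon-inducible GTPase. Rem1 averaged 3.09 CPM in WT and 23.8 CPM in Nlrp3-/- M-MDSCs, and 0.242 and 0 CPM in the G-MDSC groups. Ifi47 averaged 83.4 and 150 CPM in M-MDSCs and 42.2 and 47.0 CPM in G-MDSCs.

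Adgrg3 was closest to S100a8 (r = 0.984), the tetraspanin Cd82 (0.982) and Selp, P-selectin (0.980). Adgre4 was closest to Irf5, an interferon regulatory factor (r = 0.976), to Idh1, isocitrate dehydrogenase (0.955), and to the adaptor gene Shb (0.949). Irf5 was at 145, 181, 175 and 188 CPM in WT and 283, 143, 108 and 241 CPM in Nlrp3-/- M-MDSCs, so replicate 1, the highest in Adgre4, was also the highest in Irf5, and replicate 3 the lowest in both. In G-MDSCs Irf5 was at 36.7, 36.6, 37.8 and 49.4 CPM in WT and 74.4, 53.1, 44.3 and 68.5 CPM in Nlrp3-/- cells. Adgre5 was closest to AI467606 (r = 0.974), the chemokine gene Ccl6 (0.972) and S100a6 (0.972). Adgrg1 had no close match, with Pus7 at 0.754, Ap4e1 at 0.703 and Bora at 0.695.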

How the data were processed

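RNA came from splenic MDSC subsets of tumor-bearing mice, with 1 mouse per RNA sample. Libraries were prepared by QuantSeq 3′ mRNA-Seq, which reads the end of a transcript, so that counts were not divided by length and levels are compared within a gene and never between genes. The authors aligned reads to mm10 with HISAT2 2.1.0, counted them on genes by strand with HTSeq and deposited the raw counts of 24421 gene symbols per library. The labels' processing notes also name edgeR 3.14.0. The deposited counts were used as they are.

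Tests were run with edgeR 4.0.16 under R 4.3.3. In each comparison, genes were filtered with filterByExpr, scaled by TMM and tested by the quasi-likelihood test on 8 libraries, or on 16 for the difference between genotype effects, with Benjamini-Hochberg adjustment over all genes tested. A called gene had an adjusted p under 0.05 and a fold above 1.5. The standard error is the size of the log2 difference over the square root of the F statistic. CPM were scaled by TMM over the 16 libraries, and log2 CPM had a prior count of 2. The tests were checked on simulated data. The members and gene lists were chosen with earlier results of these data known. Genes named are the 5 members, Nlrp3, in each pathway list those that passed both thresholds (at most the 6 with the smallest p, and of the subset contrasts a few of these), and the genes most correlated with each member. Adgre1 and Celsr3 between genotypes, the genes within 1 Mb of Adgrg5, Gdpd3 and Pisd-ps1 were named after their values were seen.

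Libraries held 2295967 to 6079866 counts, and 3 counts, the upper limit for a count of 0, cover counting error alone, since molecules were not tagged. No 2 libraries of a group were identical. Replicate numbers came from the labels, which also name the spleen: both subsets with the same number in a genotype carry the same spleen name, read here as the same mouse, while WT and Nlrp3-/- groups are different mice. Same-mouse deviations from the group means correlated at 0.098 to 0.447 in WT and 0.007 to 0.396 in Nlrp3-/- mice. Alternatives were DESeq2 1.42.0, its size factors, library sizes alone, no filter on low counts, no fold minimum, a fit of all 16 libraries, a replicate block, offsets for transcript GC content and length (splines with 4 degrees of freedom), and leaving out each library in turn. Which libraries received more cycles of amplification was not given in the sources used here.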

Additional observations from a re-analysis of the deposited data

Results flagged for a closer look

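Adgrg1 had 1 library far from the other 3 in a pair of groups. In Nlrp3-/- M-MDSCs replicate 3 was at 4.59 CPM and the others at 1.16 to 1.51 CPM, a gap of 0.896 of the range of the group. In Nlrp3-/- G-MDSCs replicate 2 was at 3.46 CPM and the others at 0 to 0.525 CPM, a gap of 0.848 of the range. The critical value for 4 samples is 0.829, and chance gives such a library in about 1 in 20 groups, of which 24 were looked at.

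Adgrg5, which was chosen for a difference between its genotype effects, is left aside here. Among the other genes, the genotype effect differed between the subsets in 2. Gdpd3, a lysophospholipase D gene, rose in both subsets, from a mean of 44.7 to 346 CPM in M-MDSCs and from 60.0 to 1785 CPM in G-MDSCs, and the effect in G-MDSCs was larger by 1.94 on the log2 scale (SE 0.24, edgeR adjusted p = 0.000933). Pisd-ps1, a pseudogene whose reads its parent gene or copies could share, averaged 9.91 and 6.86 CPM in WT and Nlrp3-/- M-MDSCs and 53.5 and 155 CPM in G-MDSCs, a difference of 2.09 (SE 0.32, adjusted p = 0.0103). Without Nlrp3-/- M-MDSC replicate 1 the difference of Pisd-ps1 was 1.78 and missed the threshold (adjusted p = 0.0616).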

How the results depend on the processing

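The log2 difference of Adgrg5 between genotypes in M-MDSCs and the calls of Adgrg3 and Adgre4 between the subsets held under every alternative run. Of 842 values recomputed under other settings 742 were counted as unchanged. For tested differences this meant the same direction and side of the threshold. Counts of called genes, levels and the untested differences of Adgrg5 were judged by the size of their change. Lists of correlated genes were judged by their overlap.

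The count of genes called between genotypes in M-MDSCs, 1060, was 425 with the replicate block, 668 with the GC correction and 48 with both of these, and 450 to 1783 when each library was left out, lowest without Nlrp3-/- replicate 4 and highest without Nlrp3-/- replicate 1. In G-MDSCs 1522 became 985, 966 and 395. Same-numbered WT and Nlrp3-/- libraries come from different mice, and their deviations correlated at −0.488 to 0.025 in M-MDSCs and −0.329 to −0.054 in G-MDSCs, so the block pairs numbers alone. With the mouse as a block no call of a member between the subsets changed. The 3 calls of the difference between genotype effects were 5 without the filter, 8 with DESeq2 and 2 to 5 with each library left out.

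Adgrg5 between the WT subsets was −1.75 with library sizes alone, −1.01 in the fit of 16 libraries, and −1.34 to −0.77 with libraries left out. It passed the threshold without M-MDSC replicate 1 or G-MDSC replicate 3. The WT values also entered the choice of the gene, so passing here is not an independent test. In Nlrp3-/- mice it was −5.56 with library sizes alone.

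Signs of calls turned for 2 genes between the Nlrp3-/- subsets, Rock1 (from 0.69 to −0.032) and Grk6 (from 0.71 to −0.0084), with library sizes alone, where neither passed the threshold. The other signs turned in differences that had not passed it. In M-MDSCs, Adgrg3 was 0.27 with the block and 0.10 with block and GC correction (−0.48 to 0.78 with libraries left out), Adgre4 −0.15 with the block (−0.64 to 0.51), and Adgre5 −0.053 with the GC correction and −0.058 with both (−0.020 to 0.24). In G-MDSCs, Adgrg3 was 0.0027 with library sizes alone, and Adgre5 −0.073 and −0.088 with the GC correction without and with the block. Between genotype effects, Adgrg3 was −0.017 with the mouse as a block (−0.91 to 0.49), and Adgre5 −0.018 with library sizes alone (−0.031 to 0.18). By Spearman correlation 0 of the closest genes of Adgrg5, Adgrg1 and Adgrg3 and 1 each of Adgre4 and Adgre5 were shared. The cause was not tested for any of these. The depth limits Adgrg1 in every group and Adgrg5 in G-MDSCs.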
